A study of Arabidopsis thaliana with 2 samples.

Results

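Eukaryotic translation initiation factor 3 (eIF3) was examined through 10 of its subunit genes in developing Arabidopsis thaliana seeds. The genes were taken by their identifiers from both deposited expression tables and encode subunits a, b, c, d, e, f, g, h and i, with subunit d represented by 2 paralogs, AT4G20980 and AT5G44320. All 10 were found among the 33602 gene models listed. GmPSKγ1 seeds came from plants with the construct OLEOp:GmPSKγ1, which carries a soybean gene for a precursor of the peptide hormone phytosulfokine, and the control seeds from plants with OLEOp:GmPSKγ1tc. The labels give the same OLEOp promoter and the same age of 10 DAP for both, and state neither the accession of the host plants nor where that promoter is active. The RNA of 3 individual lines went into 1 pooled library per genotype, so no spread between plants or lines is known and no test between genotypes can be made. The set was selected on earlier results of these data, in which AT4G20980 had one of the highest FPKM ratios between the libraries, so the ratios are given as a description.

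eIF3 is the largest of the initiation factors of translation. It binds the small ribosomal subunit, holds it apart from the large one and helps to bring in the initiator tRNA and the messenger RNA. Its scaffold is built of subunits with PCI and MPN domains, folds that are also found in the COP9 signalosome and the lid of the proteasome. In Arabidopsis, subunit h is known for helping ribosomes to resume scanning after short upstream reading frames, and subunit f for its need in pollen and embryo development.

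Both libraries had the transcripts of a seed. All 8 seed genes checked, among them those of the storage albumins SESA1 to SESA4 and of the embryo regulators FUS3 and LEC1, were present, with a summed level of 82630 FPKM in GmPSKγ1 seeds, against 102032 FPKM in control seeds. In GmPSKγ1, 5 of them were lower, the albumins and OLEO1, and 3 were higher, none by 2-fold. SESA3, the most abundant, had 27054 FPKM in GmPSKγ1 seeds, against 34812 FPKM in control seeds. SESA4 had 11073 and 19092 FPKM, the cruciferin gene CRA1 had 8831 and 6493 FPKM, and FUS3 had 249 and 235 FPKM. Of 8 marker genes of other tissues, the 3 of root hairs were listed at 0 in both libraries. The pollen markers VGD1 (3.69 FPKM in GmPSKγ1 seeds, 5.07 FPKM in control seeds) and PGA4 (5.67 and 5.52 FPKM) were the others above 1 FPKM, together 9.36 FPKM in GmPSKγ1 seeds and 10.6 FPKM in control seeds. The part of these differences in the results was not tested. The markers of guard cells and fruit wall were below 1 FPKM in both. FPKM counts reads or fragments per kilobase of a gene and is scaled to the size of the library. The low values fell on regular steps that put the depth of the GmPSKγ1 library at about 16.4 M reads (mega) and that of the control library at 15.3 M. These steps gave an estimate of the reads behind each gene and a 95% counting interval of each ratio, which covers counting error only.

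The largest ratio lay in subunit d. Its paralogs are alike in the coding sequence, which is a single exon in both, of 1776 bases in AT4G20980 and 1767 bases in AT5G44320. The coding sequences were 84.8% identical over 1758 aligned bases. The longest run of bases that they share exactly, at positions 1234 to 1298 of the AT4G20980 coding sequence, is shown because reads that lie wholly inside it cannot be assigned to either gene by sequence.
Shared run of the eIF3d paralogs: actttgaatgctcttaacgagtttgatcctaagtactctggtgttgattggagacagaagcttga
Outside such runs the genes are distinguishable. Of the 36-base words of the longest AT4G20980 transcript, 1.28% also occur in the AT5G44320 transcript, and of its 50-base words 0.688%. How long the reads were and how those with several matches were handled is not stated in the sources used here.

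AT4G20980 (chromosome 4, 11216881 to 11219638, TAIR10, plus strand) had 9.51 FPKM in GmPSKγ1 seeds, against 0.902 FPKM in control seeds. These were whole seeds, so fewer cells that express a gene and less of its RNA per cell cannot be told apart. The value was 10.5-fold higher in GmPSKγ1, with a counting interval of 7.15 to 15.9 on about 325 reads in GmPSKγ1 and 29 in the control. The gene has 4 annotated transcripts of 1 to 3 exons, each with a coding region of 1776 bases in 1 exon. These reads were estimated from the shortest transcript, so they are approximate. After adding 1 to FPKM its log2 ratio was 2.47, and 0.0449% of the 17816 genes that averaged 1 FPKM or more had a higher one. It was the only one of the 10 genes that was at least 2-fold higher on this scale, where 0.41% of all genes were. None was at least 2-fold lower, where 0.819% of all genes were. Its identity as an eIF3 subunit rests on the reference, which names its product as subunit 7 of eIF-3, an older name of subunit d.

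AT5G44320 (chromosome 5, 17854589 to 17856680, minus strand), the second gene of subunit d, had 34.2 FPKM in GmPSKγ1 seeds, against 28.9 FPKM in control seeds. It is intronless, and its values correspond to 1174 and 925 reads. The ratio was 1.19, with a counting interval of 1.09 to 1.29. Both paralogs were thus higher in GmPSKγ1, and AT5G44320 was the more abundant in either library.

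Summed over both paralogs, a value that does not depend on how reads were divided between them apart from gene length, subunit d had 43.7 FPKM in GmPSKγ1 seeds, against 29.8 FPKM in control seeds. The ratio of the sums was 1.47 (counting interval 1.35 to 1.59). AT4G20980 made up 21.7% of the subunit d signal in GmPSKγ1 and 3.03% in the control. Subunit d had the lowest sum of the 13 eIF3 subunits in the control. In GmPSKγ1 its sum was close to that of subunit j, at 44.4 FPKM, and these were the lowest pair.

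**Figure D1:**
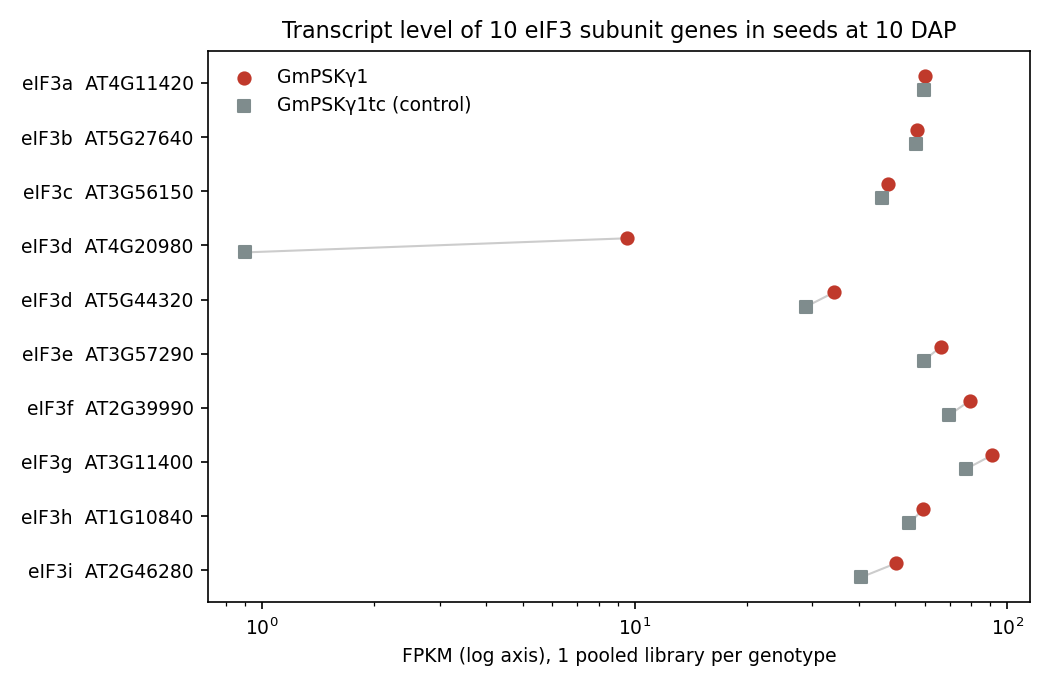
FPKM (log axis) of the 10 eIF3 genes in the GmPSKγ1 library (circles) and the GmPSKγ1tc control library (squares), 1 pooled library each. AT4G20980 stands at 9.51 FPKM in GmPSKγ1 seeds, against 0.902 FPKM in control seeds, while the points of each of the other 9 genes lie close together.

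The nearest upstream genes with reads in both libraries had no such ratio. Upstream on the same strand, AT4G20960, a cytidine deaminase family gene, had 20.5 FPKM in GmPSKγ1 seeds, against 17.2 FPKM in control seeds, and the receptor-like kinase gene AT4G20940 had 9.12 and 9.13 FPKM. The immediate neighbours on either side, AT4G20970 and AT4G20990, were listed at 0 in both libraries, so they have no ratio. Further downstream, AT4G21000 was also at 0 in both, and AT4G21010 had 3 reads in GmPSKγ1 and 0 in the control. AT4G20980 overlaps no other listed model.

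Subunits a, b and c differed between the libraries by less than counting error. AT4G11420, which encodes the large PCI subunit a (chromosome 4, 6947476 to 6952445), had 60.0 FPKM in GmPSKγ1 seeds, against 59.8 FPKM in control seeds. AT5G27640, which encodes subunit b (TIF3B1), a protein with an RNA recognition motif and a WD40-type propeller, had 57.3 FPKM in GmPSKγ1 seeds, against 56.9 FPKM in control seeds. AT3G56150, of the PCI subunit c that contacts the early initiation factors, had 47.9 FPKM in GmPSKγ1 seeds, against 46.1 FPKM in control seeds. The counting intervals of these ratios, 0.956 to 1.05, 0.949 to 1.07 and 0.981 to 1.10, all included 1.

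The subunits e, f and h, with PCI (e) or MPN domains (f and h), were slightly higher in GmPSKγ1. AT3G57290 of subunit e (INT6) had 66.4 FPKM in GmPSKγ1 seeds, against 59.7 FPKM in control seeds, on 1820 and 1527 reads, a ratio of 1.11 (counting interval 1.04 to 1.19). AT2G39990 of subunit f had 79.3 FPKM in GmPSKγ1 seeds, against 69.9 FPKM in control seeds, a ratio of 1.13 (1.05 to 1.22). The reference names its product eukaryotic translation initiation factor 2, so its place as subunit f rests on the list of genes examined. AT1G10840 of subunit h (TIF3H1) had 59.5 FPKM in GmPSKγ1 seeds, against 54.6 FPKM in control seeds. Its ratio was 1.09 (1.01 to 1.18).

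The small subunits g and i had the largest ratios after AT4G20980, together with AT5G44320. AT3G11400 of subunit g, an RNA-binding protein (EIF3G1), was the most abundant of the 10 genes, with 91.2 FPKM in GmPSKγ1 seeds, against 77.5 FPKM in control seeds and a ratio of 1.18 (1.10 to 1.26). AT2G46280 of subunit i, a WD40 repeat protein (TRIP-1), had 50.3 FPKM in GmPSKγ1 seeds, against 40.5 FPKM in control seeds, a ratio of 1.24 (1.13 to 1.36).

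All 10 genes were higher in GmPSKγ1 by some amount, as were 57.9% of the 17816 genes. Their median log2 ratio was 0.17, against 0.05 over all genes, and 0.15 without AT4G20980. The counting interval lay above 1 for 7 of the 10, as it did for 22.7% of the 14633 genes that have an interval. Without AT4G20980 it lay above 1 for 6 of 9. It lay below 1 for none of the 10, against 14.2% of the 14633 genes. Intervals narrow as reads increase, and the 14633 include genes down to a mean of 1 FPKM. These shares are therefore not like for like. Small ratios of this kind depend on the scaling of the libraries. After rescaling the control by the median ratio of all genes, a factor of 1.04, subunits a and b were lower in GmPSKγ1 and 8 of 10 genes were higher. After rescaling without the 50 most abundant genes, subunit c was lower as well, and 4 intervals lay above 1.

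**Figure D2:**
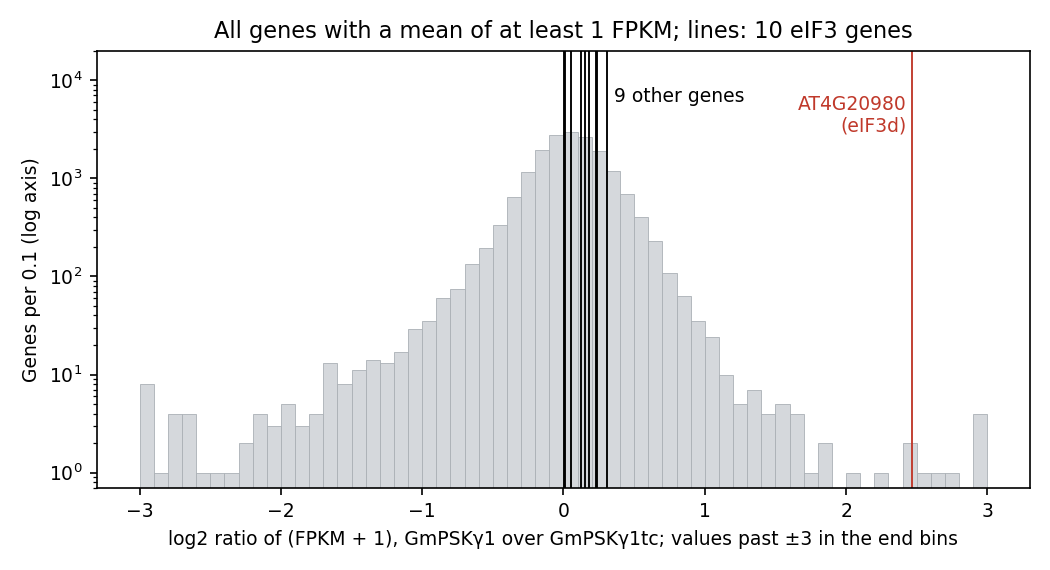
Number of genes (log axis) by log2 ratio of (FPKM + 1), GmPSKγ1 over GmPSKγ1tc, for the 17816 genes that averaged 1 FPKM or more. Vertical lines mark the 10 eIF3 genes. AT4G20980 stands at 2.47, and the other 9 lie between 0.01 and 0.31, in the bulk of all genes.

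Apart from subunit d, the levels of the genes lay close together, and they spanned 47.9 to 91.2 FPKM in GmPSKγ1 and 40.5 to 77.5 FPKM in the control. Subunit g led in both libraries, followed by f, and the paralogs of d came last. In GmPSKγ1 the neighbours a and h, h and b, and i and c had overlapping counting intervals of their levels. In the control the same held for g and f, a and e, e and b, and b and h.

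A further 11 eIF3 genes were listed from general knowledge. These are second copies of subunits b, c, g and i and the genes of subunits j, k, l and m. Of the 10 that averaged 1 FPKM or more, 7 were higher in GmPSKγ1 and 3 lower, where 57.9% of all genes were higher. None was called at 2-fold, where 0.41% of all genes were called higher and 0.819% lower. The median log2 ratio of these 10 was 0.12, against 0.05 over all genes. AT4G33250 of subunit k was the most abundant eIF3 gene of all, with 103 FPKM in GmPSKγ1 seeds, against 82.4 FPKM in control seeds (ratio interval 1.16 to 1.35). AT5G25757 of subunit l had 35.1 and 26.2 FPKM and its copy AT5G25754 had 57.8 and 53.3 FPKM. Their coding sequences are 99.7% identical, so the division between them is uncertain, and their sum was 92.8 FPKM in GmPSKγ1 seeds, against 79.5 FPKM in control seeds. For subunit m, AT5G15610 had 41.3 FPKM in GmPSKγ1 seeds, against 34.9 FPKM in control seeds (ratio interval 1.08 to 1.29), and AT3G02200 had 44.5 and 41.8 FPKM (0.977 to 1.16).

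Subunit j, which is loosely bound to the complex, had copies on either side of 1. AT5G37475 had 27.6 FPKM in GmPSKγ1 seeds, against 25.4 FPKM in control seeds, and AT1G66070 had 16.8 and 18.3 FPKM, both with intervals that included 1. AT2G46290, the second subunit i gene, lies beside AT2G46280 and had 13.7 FPKM in GmPSKγ1 seeds, against 10.4 FPKM in control seeds (1.10 to 1.58). AT5G25780, the second subunit b gene, had 20.5 FPKM in GmPSKγ1 seeds, against 20.9 FPKM in control seeds. Its coding sequence is 94.6% identical to that of AT5G27640, and the sum for subunit b was 77.8 FPKM in either library. The second copies of c and g were scarce. AT3G22860 had 0.328 FPKM in GmPSKγ1 seeds, against 0.351 FPKM in control seeds on 13 reads each, and AT5G06000 had 2.02 and 2.47 FPKM on 35 and 40 reads.

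**Figure D3:**
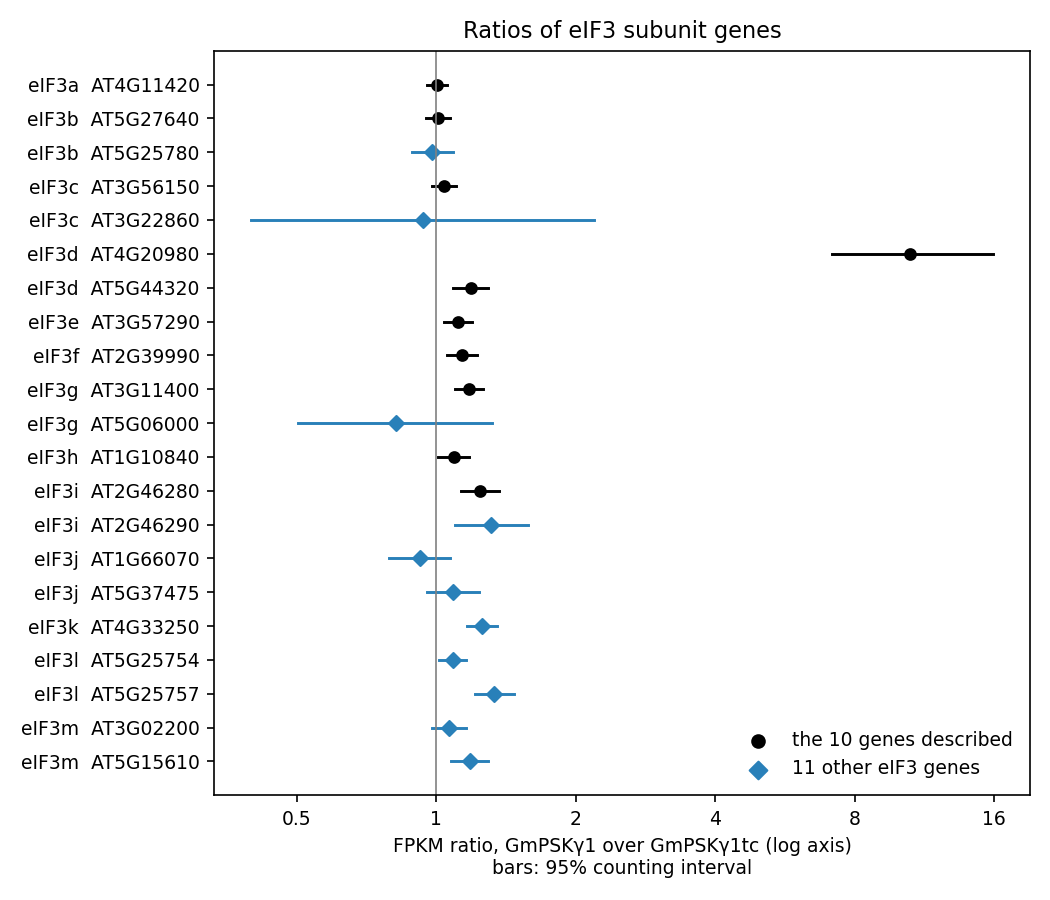
FPKM ratio of GmPSKγ1 over GmPSKγ1tc (log axis) with 95% counting intervals for the 10 eIF3 genes (black circles) and 11 other eIF3 genes (blue diamonds). AT4G20980 stands at 10.5, and the highest of the other points, AT5G25757, at 1.34.

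Among the 8 subunits with 2 genes, the paralogs' shares differed between the libraries by a few percentage points or less in all but subunit d. The less abundant copy gave 26.3% of subunit b in GmPSKγ1 and 26.8% in the control, and 21.4% and 20.5% of subunit i. In subunit l, the largest such difference after subunit d, AT5G25757 gave 37.8% in GmPSKγ1 and 33.0% in the control. Counted by subunit, 12 of 13 sums were higher in GmPSKγ1, where 57.9% of single genes were higher. Among these, the sums of subunits a and j had log2 ratios of 0.006 and 0.026, below the median of 0.05 over all genes. The sum of subunit b was level, with a log2 ratio of -6.52e-05. The count was not repeated after rescaling of the libraries.

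**Figure D4:**
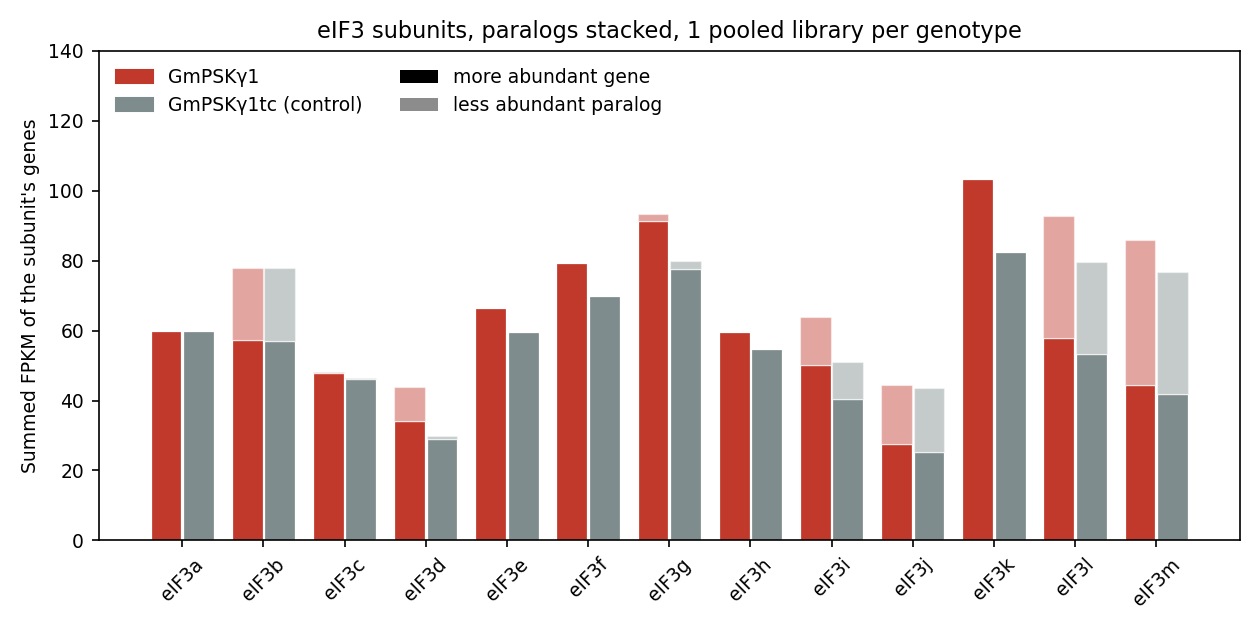
Summed FPKM of the genes of each of the 13 eIF3 subunits, in GmPSKγ1 (red, left) and GmPSKγ1tc (grey, right), with the less abundant paralog in the paler shade on top. Subunit d has a sum of 43.7 FPKM in GmPSKγ1 seeds, against 29.8 FPKM in control seeds, and the paler part of its control bar is barely visible.

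The 250 bases before the annotated gene start were searched for motifs in 9 of the 10 genes, all but AT4G20980. They are shown for AT5G44320, whose window held the most matches, and for AT1G10840 of subunit h, whose window held both kinds of motif. Capitals mark matches, on either strand, to the telo box AAACCCTAA and to the site II element, searched as TGGGCC and TGGGCT, motifs known upstream of many plant genes of the translation machinery. The windows are from RefSeq, assembly TAIR10.1, at chr5:17856741-17856990 (minus strand) and chr1:3610617-3610866 (minus strand).
AT5G44320 (eIF3d): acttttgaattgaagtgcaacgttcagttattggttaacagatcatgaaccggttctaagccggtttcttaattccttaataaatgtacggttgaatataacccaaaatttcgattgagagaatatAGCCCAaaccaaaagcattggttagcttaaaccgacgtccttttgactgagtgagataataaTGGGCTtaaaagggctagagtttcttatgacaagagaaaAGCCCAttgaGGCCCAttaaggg
AT1G10840 (eIF3h): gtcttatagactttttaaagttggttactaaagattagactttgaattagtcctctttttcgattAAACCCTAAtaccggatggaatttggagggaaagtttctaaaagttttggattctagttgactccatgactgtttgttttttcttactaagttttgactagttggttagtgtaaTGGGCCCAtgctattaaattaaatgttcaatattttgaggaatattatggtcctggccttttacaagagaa

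The window of AT5G44320 held 4 site II matches, the nearest from 13 to 8 bases before the RefSeq start. The deposited models of AT5G44320 and AT1G10840 start further downstream, at 17856680 and 3610520, so distances to those starts are larger. The window of AT1G10840 held 1 telo box and 2 site II matches that overlap each other on opposite strands. Among the 9 genes, 4 had a site II match (AT5G27640 and AT3G11400 were the others), where 19.2% of 27442 protein-coding gene windows of the same length had one, and 24.0% of the 17241 whose gene averaged 1 FPKM or more. Of the 11 other eIF3 genes 3 had one, and of 26 genes of other initiation factors 8 had one. The windows of AT5G27640 and AT3G11400 include part of another annotated gene. The telo box was in 1 of 9 and in 1 of the 11 other eIF3 genes, where 2.61% of all windows had it. These matches describe the letters of the windows only.

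**Figure D5:**
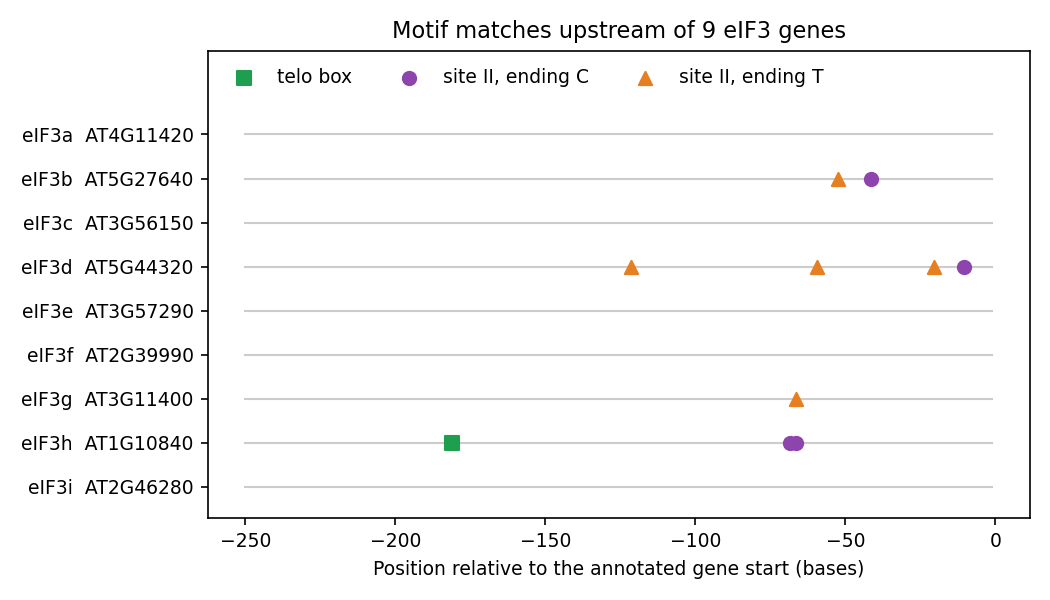
Positions of telo box and site II matches in the 250 bases before the annotated start of each of 9 eIF3 genes (horizontal axis, bases from the start). AT5G44320 has 4 site II matches, and AT1G10840 has 1 telo box and 2 overlapping site II matches.

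The genes of other initiation factors lay on either side of 1. The list held 26 genes of eIF1, eIF1A, eIF2, eIF4A, eIF4B, eIF4E, eIF4G, eIF5, eIF5B and eIF6 and their isoforms. Of these, 15 were higher in GmPSKγ1 and 11 lower, where 57.9% of all genes were higher. None was called at 2-fold, where 0.41% of all genes were called higher and 0.819% lower. Of the 22 counting intervals, 6 lay above 1 and 4 below, against 22.7% and 14.2% of all genes that have an interval. The median log2 ratio of the list was 0.02, and it was -0.03 after rescaling by the median ratio. Whether the lists differ was not tested. AT4G27130, an eIF1 gene, had 125 FPKM in GmPSKγ1 seeds, against 96.7 FPKM in control seeds, and AT5G35620, which encodes the cap-binding protein eIFiso4E, had 27.0 and 22.4 FPKM. AT1G76810 of eIF5B, the factor that joins the ribosomal subunits, had 25.2 FPKM in GmPSKγ1 seeds, against 30.8 FPKM in control seeds (ratio interval 0.767 to 0.871). The most abundant was AT2G04520 of eIF1A, at 142 FPKM in GmPSKγ1 seeds, against 140 FPKM in control seeds.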

How the data were processed

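The authors deposited 1 table per library with FPKM values for 33602 gene models. Bowtie 0.12.2 and build TAIR10 are named in the submitters' processing notes. What computed FPKM, with which annotation, whether strand was kept and how multiply mapping reads were treated is not stated in the sources used here, so reads shared with paralogs or antisense genes cannot be told apart. The members and lists were chosen with earlier results of these data known.

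Log2 ratios were computed as GmPSKγ1 over GmPSKγ1tc after adding 1 to FPKM, which understates differences of low genes, over the 17816 genes that averaged 1 FPKM or more. A gene was called at 2-fold. Reads were estimated from the steps of low FPKM values and exon lengths of RefSeq (TAIR10.1) fitted to the deposited gene ends, using the shortest transcript where there are several; 32835 models matched a locus tag. Below 200 reads, 99.5% of values of non-overlapping single-exon genes with 1 transcript came out whole within 0.05 in each library. Values spread evenly would give 10%. The step was fitted to these same genes, so the share describes the fit. Ratio intervals are exact Clopper-Pearson and level intervals exact Poisson, at 95%, for models that overlap no other. With 1 library per genotype, no count test was run. Reads are not independent molecules. The calculations were tested on simulated data. Named genes were all 10 members and all other eIF3 genes above 0. From each other list, apart from the marker lists, the 3 largest absolute ratios and the most abundant gene were named. Marker genes, the neighbours of AT4G20980, PAB2 and AT1G07930 were named outside this rule. Upstream windows were cut from the genome, as no promoter table was used here; that of AT4G20980 is not reported here. Python 3.11.15, SciPy 1.17.1 and Biopython 1.88 were used.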

Additional observations from a re-analysis of the deposited data

How the results depend on the processing

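With 1 library per genotype no replicate could be left out. No paired analysis was possible because each genotype has a single pooled library. The 10 eIF3 genes gave a median log2 ratio of 0.09 to 0.17 under all alternatives, and AT4G20980 was the only one called at 1.5-fold, 2-fold and 4-fold. Its log2 ratio was 3.26 when 0.1 was added to FPKM and 1.30 when 5 was added. That of subunit d as a sum was 0.46 to 0.55. Rescaling without the 50 most abundant genes, a factor of 1.06 on the control, left 4 intervals above 1 instead of 7 (14.8% of all genes), and the log2 ratio of AT4G11420 was then -0.07; rescaling by the median ratio left 6 (17.4%). The use of these intervals under rescaling was chosen after seeing the data. Over all genes, 73 were called higher and 146 lower; a pseudocount of 0.1 gave 179 and 231, one of 5 gave 14 and 54, a minimum mean of 5 FPKM gave 30 and 85, and thresholds of 1.5-fold and 4-fold gave 557 and 478, and 11 and 29. Without overlapping models 46 were higher. Depth limits the control value of AT4G20980, at about 29 reads.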

Other observations

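Genes that work with eIF3 in translation or share its domains were also measured, and none was called at 2-fold. The COP9 signalosome, a regulator of protein degradation built of PCI and MPN subunits like eIF3, had 10 of 10 genes higher in GmPSKγ1, with a median log2 ratio of 0.16, and 3 of 9 counting intervals above 1, where 57.9% of all genes were higher and 22.7% had an interval above 1. After rescaling the control by the median ratio of all genes, 8 of the 10 were higher. CSN4 (AT5G42970) had 22.2 FPKM in GmPSKγ1 seeds, against 17.7 FPKM in control seeds, CSN2 (AT2G26990) had 32.7 and 28.0 FPKM, and CSN8 (AT4G14110), the most abundant, had 40.3 and 35.1 FPKM. Of 8 genes of elongation factors and poly(A)-binding proteins, 6 were higher and 2 lower, with a median of 0.13. Their counting intervals lay above 1 for 5 genes and below 1 for 1. That 1 was PAB2 (AT4G34110), with 214 FPKM in GmPSKγ1 seeds, against 226 FPKM in control seeds (ratio interval 0.917 to 0.974). The other lower gene, AT1G07930 of eEF1A, had 40.7 and 40.9 FPKM, with an interval that included 1. The eEF1A genes, which deliver tRNA to the ribosome, are near-identical copies whose single values are uncertain; AT5G60390 had 648 FPKM in GmPSKγ1 seeds, against 518 FPKM in control seeds, AT1G07940 had 481 and 412 FPKM, and AT1G07920 had 210 and 181 FPKM.

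The TOR kinase pathway is known in Arabidopsis to act on eIF3h through the S6 kinases. Of its 5 listed genes, 4 were lower in GmPSKγ1, with a median log2 ratio of -0.06. Over all genes, 7496 of 17816 were lower. Among the 5 counting intervals, 1 lay below 1, that of TOR, and 1 above, that of LST8-1. An interval below 1 was found for 14.2% of the genes that have an interval. TOR (AT1G50030) had 8.89 FPKM in GmPSKγ1 seeds, against 10.8 FPKM in control seeds (ratio interval 0.758 to 0.889). S6K2 (AT3G08720) had 6.42 and 7.47 FPKM, with an interval that included 1. LST8-1 (AT3G18140), of a TOR partner, was higher, with 44.8 FPKM in GmPSKγ1 seeds, against 38.3 FPKM in control seeds.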
